A study of Mus musculus with 13 samples.

Results

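The levels of 10 genes of the actin cytoskeleton and of cell motility were followed in single hypothalamic microglia. The genes were Actb, Tmsb4x, Cfl1, Pfn1, Coro1a, Arpc1b, Arpc2, Rhob, Aif1 and Elmo1, 10 of the 17280 genes that the filtered count table and all 13 plate tables share. They were chosen as named genes of this machinery and read by symbol from the plate tables, in wells with at least 1500 transcripts over those genes. All 10 were found, and all 10 passed the filter on low counts in every comparison.

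Microglia were sorted as CD45lo, CD11b+ single cells from male C57BL/6J mice, wild type and without a transgene, on normal chow (NC) or high-fat diet (HFD), and their transcripts were counted by CEL-Seq2, with 192 wells on each of 13 plates. The groups were NC (722 cells, 19 replicates), HFD for 1 day (161 cells, 6 replicates), 3 days (121 cells, 4 replicates), 1 week (172 cells, 6 replicates, of which 1, with 4 cells, was too small for the comparisons below), 4 weeks (128 cells, 3 replicates), 9 weeks (82 cells, 2 replicates) and 16 weeks (231 cells, 5 replicates). A replicate was an identifier in the authors' table of wells, which need not be 1 mouse. The main edgeR fits of diet took each sum over the cells of 1 identifier on 1 plate as a unit. Their p-values, errors and intervals therefore measure the spread between sums, repeat sums of 1 identifier included. At 9 weeks 2 HFD identifiers gave 6 sums, and at 16 weeks 5 gave 10. The permutation test kept identifiers whole. Cell names carry a number of weeks, and what it counts is not given in the sources used here (4weeks, 10weeks and 16weeks on plates 1 to 3, 9wks on plates 6 to 9, 14wks on plates 4 and 5, 24wks on plates 10 to 12, both 14wks and 24wks on plate 13). The only NC sum of plate 1 pools 49 cells named 4weeks and 24 named 10weeks. The labels give brain as the tissue, and their protocols name cerebellum, hippocampus and cortex beside the hypothalamus and 3 days of HFD for every plate, so the hypothalamus was taken from the study's methods and the lengths from its table of wells.

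Actin is held in cells as monomers and as filaments, and a moving or engulfing cell turns one into the other at its edge. Profilin feeds monomers to growing ends, thymosin beta-4 holds monomers in reserve, cofilin cuts old filaments, and the Arp2/3 complex starts branches that coronin helps to dismantle. Small GTPases steer these steps, and microglia, whose thin processes survey the brain and take up debris, are known for constant actin remodelling and for the actin-bundling protein Iba1, the product of Aif1.

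The cells were microglia by their markers, since 99.753% held at least 3 unique molecular identifiers (UMIs, each marking 1 captured transcript) of the microglial list, while the lists of other cell types reached 3 UMIs in 0 to 1.484% of the cells. The 1617 cells held a median of 2839.8 transcripts (1509.7 to 19948.3). Counts were summed over the cells of 1 replicate on 1 plate, which gave 28 NC and 40 HFD sums of 7 to 76 cells and 22768 to 219146 transcripts. Levels are given in CPM, the transcripts of a gene scaled to a sum of 1000000, and because CEL-Seq2 yields 1 tag per transcript from the 3' end, gene length does not enter them. Plates stood apart in ways that bear on the values below. Plate 5 held no NC cell, the NC of plate 4 was 1 sum of 7 cells, 16 identifiers lay on more than 1 plate, and the plate tables listed 20858, 22063 or 27462 genes. The same 192 well barcodes were on every plate and do not mark shared cells.

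Actb and Tmsb4x stood above the other 8 genes in every sum. Actb (beta-actin, the building block of filaments, chr5:142903115-142906754 in GRCm38, minus strand) had levels of 1624, 4963 and 9706 CPM as lowest, median and highest of the 68 sums. Tmsb4x (thymosin beta-4, chrX:167207093-167209315, minus strand) ranged from 2849 over a median of 4250 to 5951 CPM. The ranges of this pair overlapped, and the lowest Tmsb4x value lay above the highest value of any of the other 8 genes. Together the 10 genes made up 0.94 to 1.93% of the transcripts of a sum (median 1.31%), and Actb and Tmsb4x supplied 55.9 to 77.8% of that amount.

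The other 8 genes followed at median levels between 242.2 and 684.2 CPM, with ranges that overlapped between all neighbours in the order. Rhob, an early-response small GTPase of endosomes and stress fibres (chr12:8497661-8500009, minus strand), came first with 684.2 CPM (267.6 to 1404). Cfl1, cofilin-1 (chr19:5490455-5495201, plus strand), had a median of 595.6 CPM (201.1 to 998.3). The Arp2/3 subunits Arpc2 (chr1:74236084-74268209, plus strand) and Arpc1b (chr5:145114215-145130705, plus strand) had medians of 581.9 CPM (327.8 to 904.9) and 515.4 CPM (216.5 to 883.8). Aif1 (chr17:35170991-35176068, minus strand) and Elmo1, the scaffold that activates Rac together with DOCK proteins during engulfment (chr13:20090596-20608353, plus strand), were near them, at 535.2 CPM (241.0 to 766.3) and 520.5 CPM (262.2 to 895.6). Coro1a, coronin-1A of blood-lineage cells (chr7:126699773-126707787, minus strand), followed at 398.1 CPM (124.2 to 633.3). Pfn1, profilin-1 (chr11:70651850-70654644, minus strand), was lowest at 242.2 CPM (63.6 to 485.1).

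Promoter sequence was at hand for 9 of the 10 members (11 windows of 250 bases before to 50 after a RefSeq start, GRCm38.p6), all but Actb. The windows of Tmsb4x and Cfl1, the pair of members with sequence that varied together most closely between cells (given at the end), are shown 5' to 3' on the strand of the gene, with the bases from the start on in capitals. The first lies at chrX:167209169-167209468 (minus strand) and the second at chr19:5490205-5490504 (plus strand).
Tmsb4x: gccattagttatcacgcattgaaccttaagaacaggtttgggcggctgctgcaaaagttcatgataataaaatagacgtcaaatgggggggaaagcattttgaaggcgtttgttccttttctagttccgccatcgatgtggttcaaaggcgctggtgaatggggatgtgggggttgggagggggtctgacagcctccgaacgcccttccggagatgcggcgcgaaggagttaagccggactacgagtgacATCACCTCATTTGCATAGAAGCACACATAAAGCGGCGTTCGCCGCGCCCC
Cfl1: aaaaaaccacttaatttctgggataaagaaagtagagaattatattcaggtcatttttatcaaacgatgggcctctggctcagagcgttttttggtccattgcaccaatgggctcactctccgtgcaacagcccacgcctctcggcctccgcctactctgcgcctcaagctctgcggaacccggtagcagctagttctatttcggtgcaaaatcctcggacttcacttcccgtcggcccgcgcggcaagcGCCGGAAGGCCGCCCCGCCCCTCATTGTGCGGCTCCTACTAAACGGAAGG
The CArG box, the site of serum response factor, a known regulator of actin genes, was searched on both strands and occurred in 0 of the 11 member windows and in 1.63% of all 32851 windows. The letters CCAAT, on either strand, occurred in 3 member windows (Rhob, Cfl1 and 1 of Elmo1) and in 37.4% of all windows. These are matches of letters only, and a window without them says nothing of the factor.

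Close relatives of the members were measured beside them. Actg1, gamma-actin, the other actin of non-muscle cells, had a median of 0 CPM and reached 41.4 CPM at most. Of 50-base stretches in the last 400 bases of its transcripts, 43.4% also occurred in other genes, and whether its reads were lost to copies in counting was not tested. The same share was 11.1% for Actb (16 other genes, 13 of them pseudogenes), 15.2% for Arpc1b and 0.5% for Cfl1, and 0 for the other members. How far this moves the levels of Actb and Arpc1b was not tested. The remaining Arp2/3 subunits had median levels of 353.2 CPM (Actr2), 293.0 CPM (Arpc4), 178.4 CPM (Arpc5), 144.4 CPM (Actr3), 142.0 CPM (Arpc3), 65.6 CPM (Arpc1a) and 59.9 CPM (Arpc5l). All of these medians lay below those of Arpc1b and Arpc2.

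**Figure D1:**
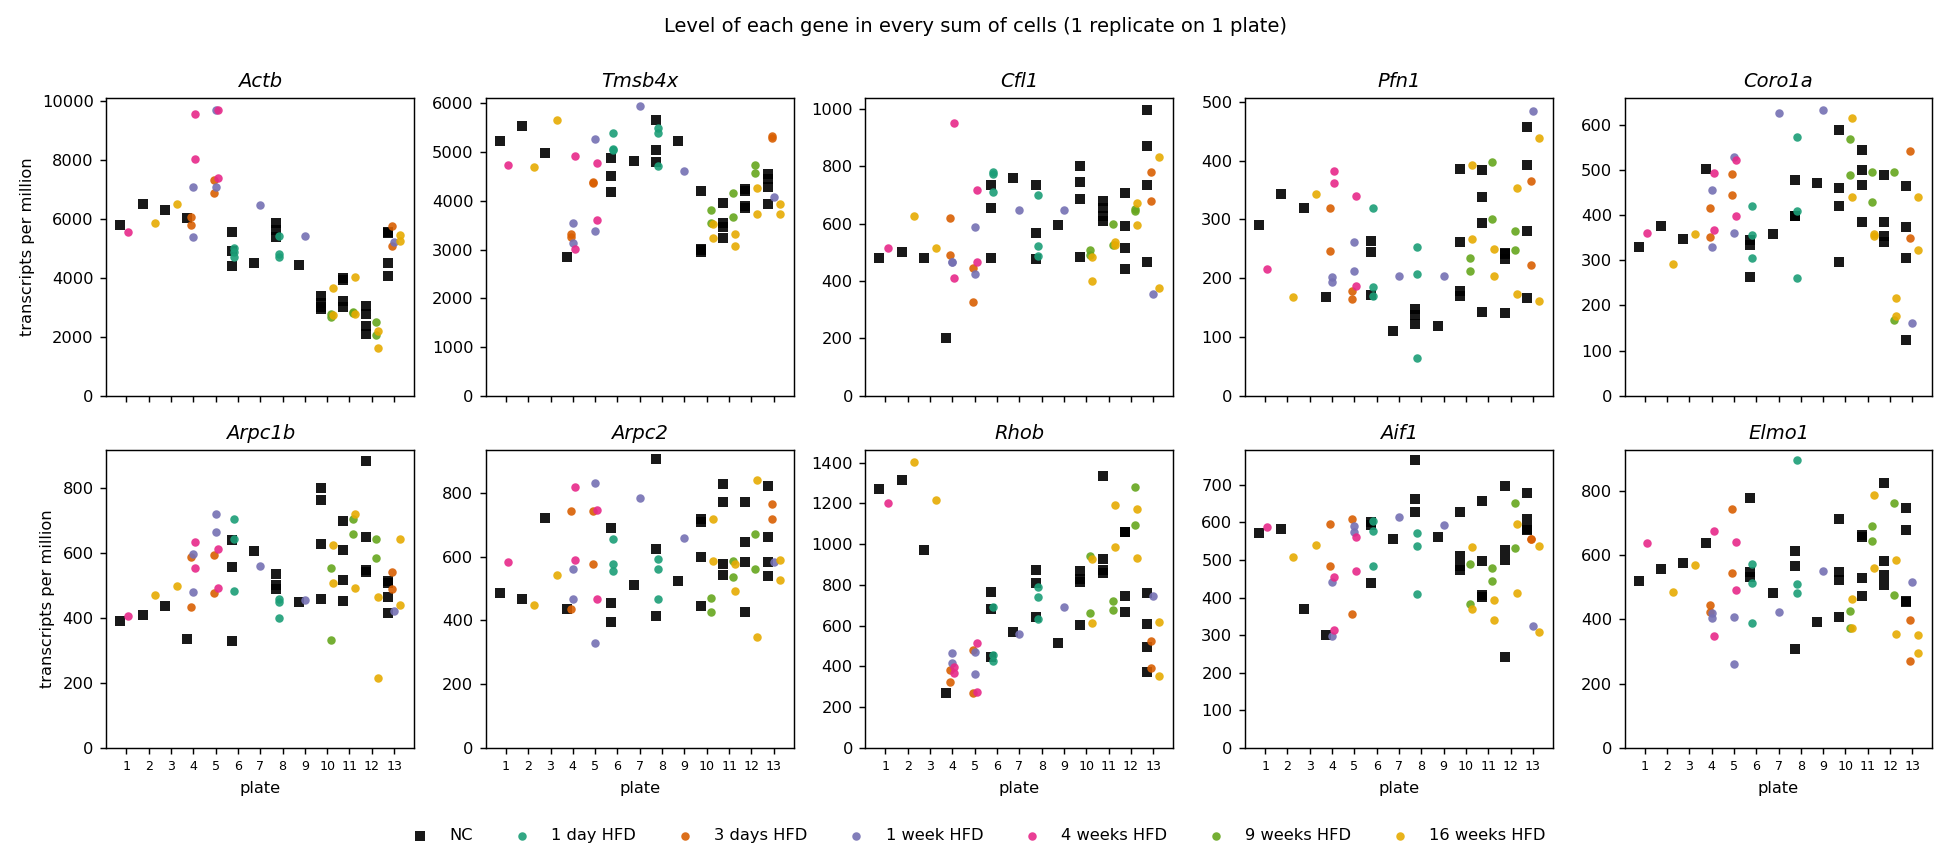
Level of each of the 10 genes (vertical axis, CPM, linear from 0) in every sum of cells, by plate (horizontal axis), with NC as black squares and HFD lengths as coloured circles. Actb is lowest on plates 10 to 12, where its 12 NC sums lie between 2098 and 4000 CPM, and Rhob lies between 972.0 and 1404 CPM on plates 1 to 3 and between 267.6 and 514.6 CPM on plates 4 and 5.

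For some members much of the spread among controls lay between plates. Among the 28 NC sums on 12 plates, 90.6% of the sum of squares of log2 Actb lay between plates, 85.2% for Tmsb4x, 76.6% for Rhob and 67.5% for Cfl1. The share was 57.6% for Pfn1, 53.2% for Arpc1b, 48.3% for Aif1, 37.8% for Coro1a, 30.0% for Arpc2 and 24.1% for Elmo1. With no plate effect 40.7% would lie between 12 plates, and Coro1a, Arpc2 and Elmo1 were below that. Actb differed 3.11-fold between its lowest and highest NC sum, and Rhob 4.95-fold, without any change of diet.

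Control replicates from different sets of plates were compared next, and some members differed between the sets. Actb in NC was 6116 ± 423.5 CPM (SD, n = 2 replicates) on plates 1 to 3, 5092 ± 589 (n = 8) on plates 6 to 9, 3144 ± 152.7 (n = 4) on plates 10 to 12 and 4920 ± 755.5 (n = 4) on plate 13, beside 6034 in the sum of plate 4. Tmsb4x was 5236 ± 21.9, 4890 ± 444.6, 3551 ± 214.8 and 4307 ± 275.6 CPM in the same order, beside 2849 on plate 4. The replicates of plates 10 to 12 did not overlap those of plates 6 to 9 for Actb (2992 to 3314 against 4404 to 5854 CPM) or Tmsb4x (3375 to 3829 against 4185 to 5655 CPM).

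In an edgeR quasi-likelihood test of any difference between these sets, 4 of the 10 genes passed an adjusted p of 0.05 (Benjamini-Hochberg over 2362 genes), against a background of 10.2% of all genes tested. They were Actb (adjusted p 2.99e-05), Rhob (0.00156), Pfn1 (0.00405) and Tmsb4x (0.0132). Rhob was 1205 ± 90.9, 662.8 ± 148.7, 875.6 ± 92.9 and 559.6 ± 164.4 CPM on plates 1 to 3, 6 to 9, 10 to 12 and 13, and Pfn1 was 310.8 ± 28.7, 164.4 ± 58.8, 252.8 ± 63.5 and 323.8 ± 128.1 CPM. Their orders across the sets were not that of Actb. Between plates 10 to 12 (24wks) and plates 6 to 9 (9wks), 2 genes passed the edgeR test, with a background of 4.19%: Actb was lower by a log2 fold change of -0.76 ± 0.13 (SE, adjusted p 0.000130) and Tmsb4x by -0.54 ± 0.13 (adjusted p 0.00849). Plates 6 to 9 and 10 to 12 also differ in the weeks in the cell names and in the number of genes listed, which cannot be told apart in this contrast. The NC replicates of plate 13 that carry 24wks, with as many genes listed as plates 10 to 12, had 4513 and 5526 CPM of Actb. These comparisons of controls were chosen after seeing the data.

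The same replicates sorted onto several plates allowed plates to be compared without a change of replicate. On plates 10, 11 and 12 lay the same 8 replicates, 4 of NC, 2 of 9 weeks and 2 of 16 weeks of HFD. Their Actb level ran from 2685 over a median of 2996 to 3651 CPM on plate 10, from 2793 over 3106 to 4033 CPM on plate 11 and from 1624 over 2280 to 3038 CPM on plate 12. Actb was lower on plate 12 than on plate 10 in 8 of 8 replicates, and lower than on plate 11 in 7 of 8. Tmsb4x moved the other way, with medians of 3380, 3509 and 4214 CPM, and was higher on plate 12 in 8 of 8 and 7 of 8 replicates. Its range on plate 12 (3738 to 4730 CPM) still overlapped those of the other plates.

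With the replicate as a block, 3 members passed the edgeR test of plate 12 against the mean of plates 10 and 11, where the background was 11.1% of 998 genes. The log2 differences were -0.46 ± 0.093 for Actb (adjusted p 0.000262), -0.51 ± 0.16 for Coro1a (adjusted p 0.0269) and 0.26 ± 0.085 for Tmsb4x (adjusted p 0.0373). In the test of any difference among the 3 plates, with a background of 9.52%, Actb (adjusted p 0.00102) and Coro1a (0.0437) passed and Tmsb4x did not (0.0851). The ratio of Actb to Tmsb4x was lower on plate 12 in 8 of 8 replicates against either plate. Cells of plate 12 held a median of 2613 transcripts, those of plates 10 and 11 held 4126 and 4676, and the part of depth in these differences was not tested. Between plates 4 and 5, which shared 6 replicates, 0 members passed by edgeR, with a background of 0.409%, and the smallest unadjusted p of a member was 0.0831 (Pfn1). These comparisons, too, were chosen after seeing the data.

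**Figure D2:**
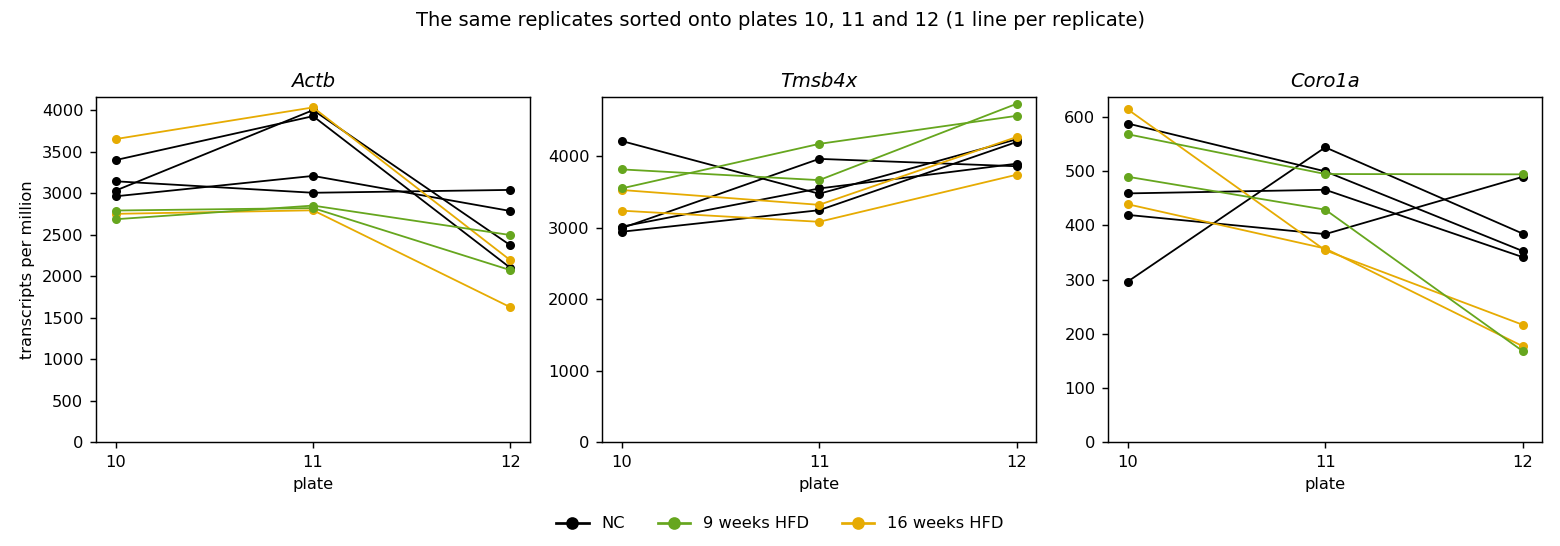
Level of Actb, Tmsb4x and Coro1a (vertical axes, CPM, linear from 0) in 8 replicates that were sorted onto plates 10, 11 and 12 (horizontal axis), with 1 line per replicate coloured by diet. Actb is lower on plate 12 than on plate 10 in 8 of 8 lines, while Tmsb4x is higher in 8 of 8.

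Against this background of plates, HFD of any length was compared with NC with the plate as a block. The edgeR quasi-likelihood test, adjusted over all genes tested, called 0 of the 10 members at 1 day, 3 days, 1 week, 4 weeks, 9 weeks or 16 weeks. The background was 0% of 1710 genes at 1 day, 0% of 1719 at 3 days, 0.121% of 1652 at 1 week, 0% of 1862 at 4 weeks, 0.0661% of 1514 at 9 weeks and 0% of 1233 at 16 weeks, so few genes of any kind were called. DESeq2 called 0 members and 0 genes in all at each length. At an unadjusted p under 0.05 edgeR had 96, 116, 86, 62, 110 and 84 genes in the order of the lengths, with 1 member at 3 days (Elmo1) and 1 at 1 week (Pfn1), and 0 members at the other lengths. In 1 test of all lengths together 0 members passed (background 0% of 2336 genes), with Actb at an unadjusted p of 0.0433 and an adjusted p of 0.822. When the HFD lengths were tested among themselves, 0 members passed (background 0%), and Actb again had the smallest p of the members (0.0302, adjusted p 0.848). Lengths on the same plate share its NC sums (3 days, 1 week and 4 weeks on plate 4, 9 and 16 weeks on plates 10 to 12, and 3 days, 1 week and 16 weeks on plate 13), so their values are not independent of each other, while 1 day shares none.

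The median log2 fold change of the members was -0.023 at 1 day, 0.11 at 3 days, 0.097 at 1 week, 0.17 at 4 weeks, -0.0037 at 9 weeks and -0.10 at 16 weeks. Over all genes tested the median lay between -0.0059 and 0.010. The number of members with a positive value was 4, 8, 6, 10, 4 and 1 of 10 in that order. Over all genes tested it was 836 of 1710, 854 of 1719, 823 of 1652, 944 of 1862, 776 of 1514 and 617 of 1233. The members share sums and controls, so their signs are not independent of each other. The 95% intervals show what the design could still hold. For Actb they ran from -0.34 to 0.091 at 1 day, -0.22 to 0.34 at 3 days, -0.10 to 0.45 at 1 week, -0.11 to 0.69 at 4 weeks, -0.42 to 0.011 at 9 weeks and -0.21 to 0.12 at 16 weeks. For Tmsb4x they ran from -0.13 to 0.29, -0.032 to 0.52, -0.26 to 0.30, -0.21 to 0.61, -0.0031 to 0.40 and -0.19 to 0.11 in the same order, so that the widest were those of 4 weeks.

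**Figure D3:**
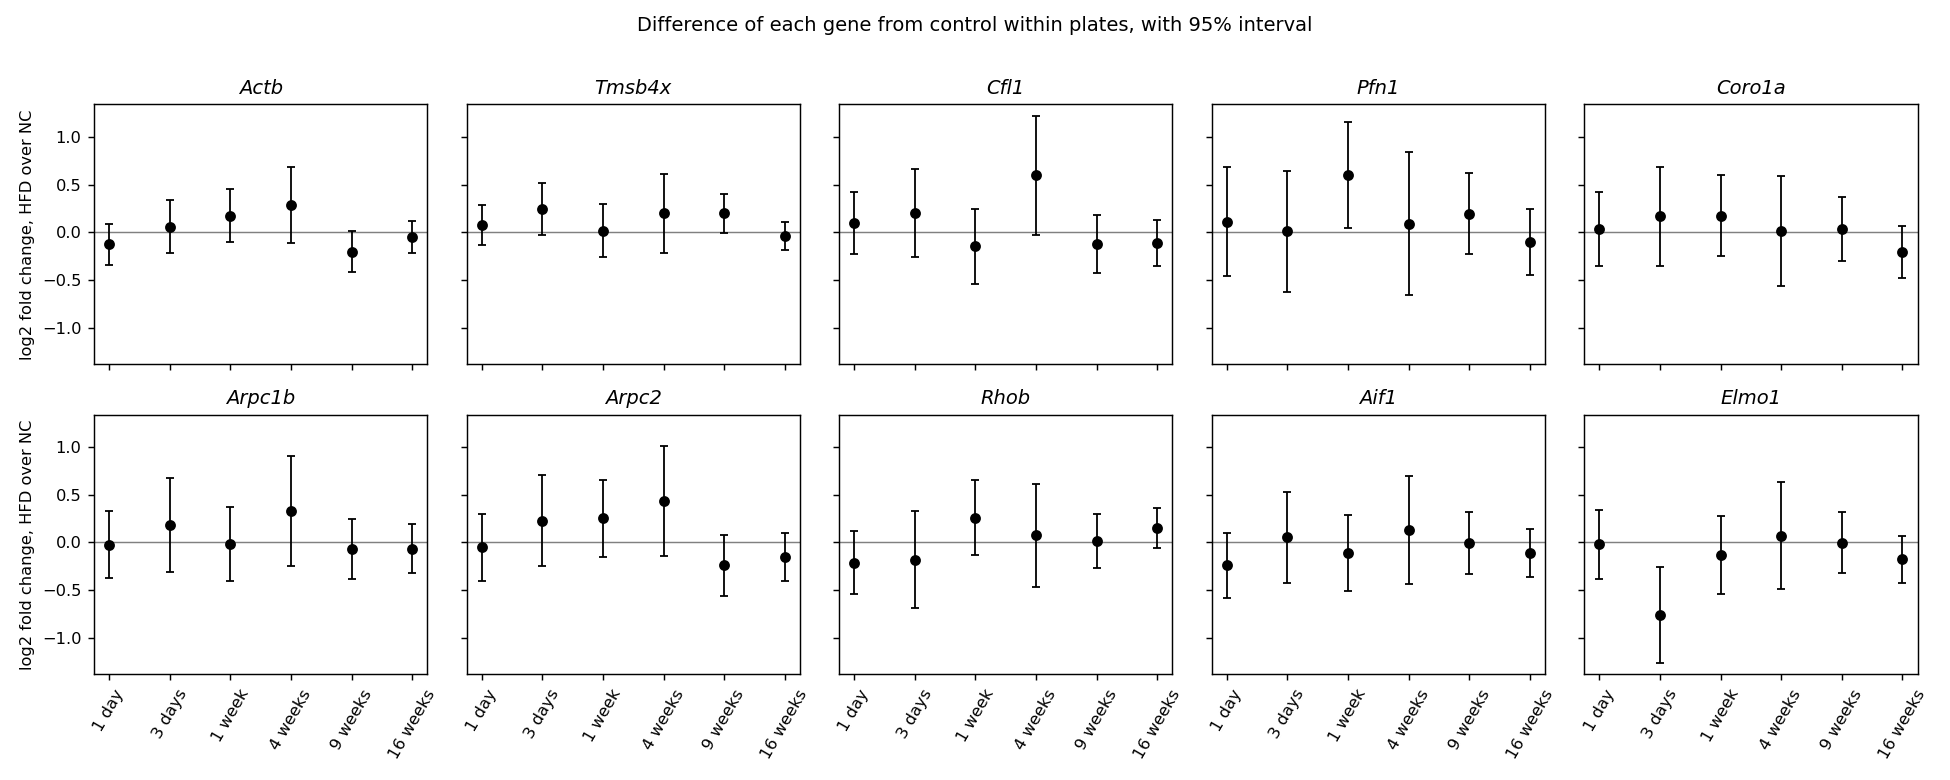
Log2 fold change of each gene (vertical axis) at each length of HFD (horizontal axis) against NC of the same plates, from the edgeR fit, with 95% intervals as bars. Of 60 intervals, only those of Elmo1 at 3 days and Pfn1 at 1 week leave out 0, and neither passed the adjusted test.

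Elmo1 at 3 days had the smallest p of any member. On plate 4 the NC sum stood at 636.9 CPM, and the HFD replicates at 423.2 and 444.7 CPM. On plate 13 the NC replicates had 455.5, 456.6, 678.1 and 748.7 CPM, and the HFD replicates 271.2 and 397.6 CPM. All 4 HFD sums lay below every NC sum of their plate. The log2 fold change was -0.76 ± 0.25 (edgeR, unadjusted p 0.00328, adjusted p 0.432, 11th of 1719 genes by p). An exact permutation test, which reassigned diet to replicates within a plate, gave a two-sided p of 0.0222, the smallest that its 45 assignments allow. After each cell was thinned to 1000 UMIs, the share of cells with an Elmo1 UMI differed from NC by -13.9 percentage points on average over the plates (-17.6 and -10.1 points).

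Other values for the same gene were less one-sided. The HFD replicates of plate 4 were sorted onto plate 5 as well, where no NC cells lay, and there Elmo1 stood at 743.3 and 543.6 CPM. One fit of all lengths, in which plate 5 is compared through its other HFD sums, gave a log2 fold change of -0.19 with an edgeR adjusted p of 0.989. On plate 13 the pair of NC replicates with the higher values carries 24wks in its cell names, and the pair near 456 CPM carries 14wks, as do the 3-day HFD replicates. With only those 14wks controls on plate 13 the fold change was -0.50 ± 0.28 (edgeR adjusted p 0.841). One of the 3-day sums of plate 4 held 423.2 CPM of the border-associated macrophage list and 350.9 CPM of the monocyte list, beside 33.5 CPM of each in NC and 28.4 and 0 CPM in the other sum. Without cells holding markers of another cell type, Elmo1 was at -0.64 ± 0.25 (edgeR adjusted p 0.569).

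Tmsb4x at 3 days was higher than NC on both plates. On plate 4 it stood at 2849 CPM in NC and 3251 and 3312 CPM with HFD, and on plate 13 at 4307 ± 275.6 CPM in NC (SD, n = 4, 3928 to 4555) and 5281 and 5329 CPM with HFD. The 4 HFD sums lay above every NC sum of their plate. The log2 fold change was 0.24 ± 0.14 (edgeR adjusted p 0.776), while the exact permutation p was 0.0222, two-sided and again the smallest possible. One fit of all lengths gave 0.15 ± 0.12 (edgeR adjusted p 0.989), and leaving out the cells with markers of another cell type 0.24 ± 0.13 (0.793). Such permutation p-values were computed for 10 members at 6 lengths and are not corrected for their number, and those at 4 and 9 weeks could not fall under 0.05.

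Pfn1 was higher at 1 week in each of the 5 HFD sums that had NC on their plate. On plate 4 it was 167.6 CPM in NC and 193.0 and 202.1 CPM with HFD, on plate 7 it was 109.5 and 204.5 CPM, and on plate 9 it was 118.0 and 203.0 CPM. On plate 13 the 1-week replicate with enough cells had 485.1 CPM (the other had 4 cells and was left out) beside NC of 323.8 ± 128.1 CPM (SD, n = 4, 165.7 to 456.6). The diets did not overlap on any of the 4 plates, but plates 7 and 9, with 1 sum of each diet, could show no overlap. Plate 4 had 1 NC sum beside 2 HFD sums, and plate 13 had 1 HFD sum beside 4 of NC. These levels rest on few transcripts of Pfn1. The NC sum of plate 4 held 29832 transcripts of all genes, and the 1-week sum of plate 13 held 30919. On plate 5, without NC, the 1-week replicates had 262.2 and 211.7 CPM. The log2 fold change was 0.60 ± 0.28 (edgeR, unadjusted p 0.0349, adjusted p 0.914), and the exact two-sided permutation p was 0.0667 with 0.0167 as the smallest possible. One fit of all lengths gave 0.21 ± 0.26 (edgeR adjusted p 0.999). The 1-week sum of plate 13 held 194.1 CPM of the border-associated macrophage list and 258.7 CPM of the monocyte list, beside 25.4 to 140.3 and 0 to 23.4 CPM in NC, and without cells holding such markers the fold change was 0.62 ± 0.29 (edgeR adjusted p 0.925). Thinned detection was 6.89 points higher on average (1.24 to 10.02 points over plates).

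**Figure D4:**
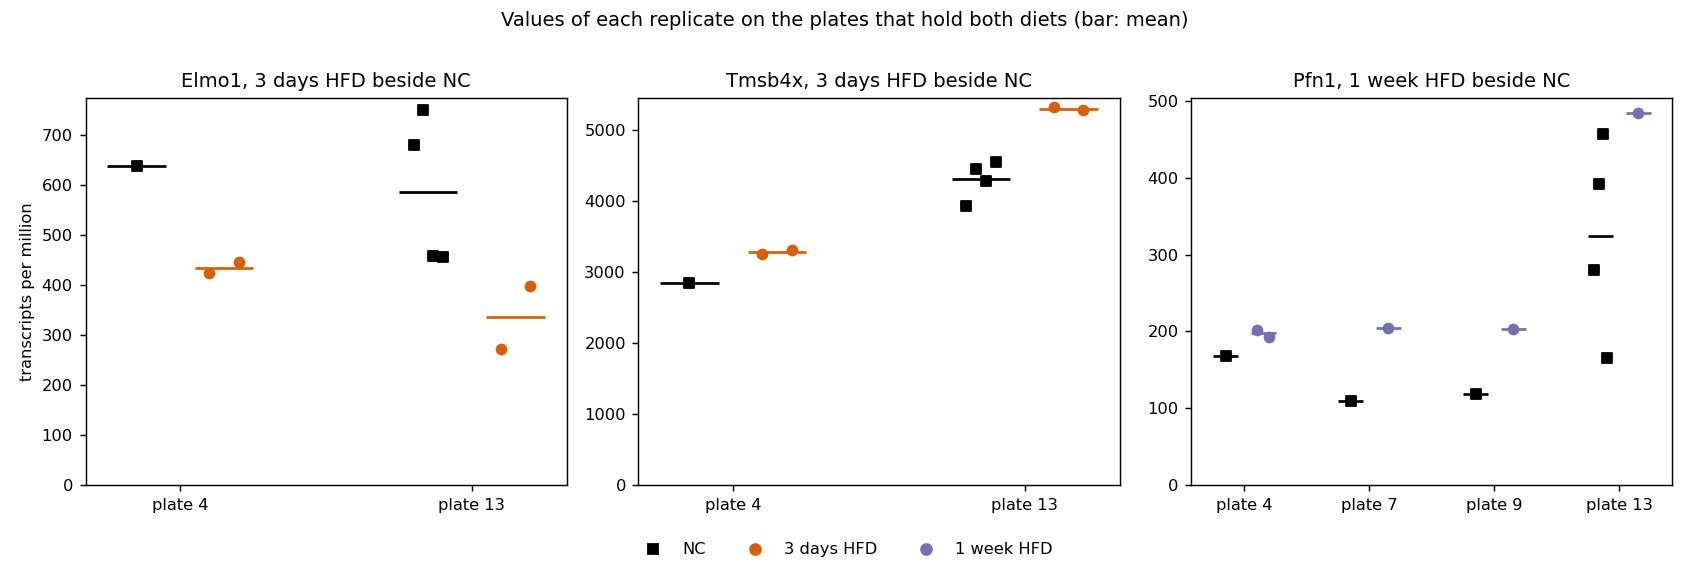
Levels (vertical axes, CPM, linear from 0) of Elmo1 and Tmsb4x at 3 days and of Pfn1 at 1 week on the plates that hold both diets (horizontal axes), with NC as black squares, HFD as coloured circles and a bar at each mean. The points of both diets are separate on every plate shown, while plate 4 has 1 NC sum and plates 7 and 9 have 1 sum of each diet.

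At 1 day no member stood clearly apart from NC. On plate 6 Actb was 4968 ± 589.2 CPM in NC and 4870 ± 137.2 CPM with HFD, and on plate 8 it was 5621 ± 235.6 and 4980 ± 383.3 CPM (SD, n = 3 each). The ranges overlapped on both plates. The log2 fold changes of the 10 genes ran from -0.24 (Aif1, adjusted p 0.923) to 0.11 (Pfn1, adjusted p 0.999) in the edgeR fit, and the exact permutation p of every member was 0.140 or more, where 0.005 was possible. Aif1 was lower on plate 8 (506.2 ± 86.1 CPM with HFD against 685.6 ± 71.8 CPM, n = 3 each, no overlap) and not on plate 6 (555.1 ± 63.6 against 544.4 ± 92.1 CPM). Tmsb4x was higher on plate 6 (5162 ± 197.6 CPM with HFD against 4521 ± 346.0 CPM, n = 3 each, no overlap) and overlapped on plate 8 (5198 ± 424.5 against 5168 ± 438.7 CPM). Arpc1b was lower on plate 8 (435.1 ± 31.2 CPM with HFD against 509.9 ± 24.1 CPM, no overlap) and overlapped on plate 6 (611.3 ± 114.9 against 508.7 ± 161.5 CPM). Every other comparison of a member on plate 6 or 8 overlapped. With 3 sums of each diet some ranges part by chance, and the share of all genes without overlap is not given here.

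At 4 weeks the fold changes of all 10 members were above 0, and several depended on plate 4. Actb was 5816 CPM in NC and 5560 CPM with HFD on plate 1, and 6034 CPM in NC and 8034 and 9557 CPM with HFD on plate 4. Cfl1 was 479.4 and 514.8 CPM on plate 1, and 201.1 CPM in NC and 412.0 and 952.1 CPM with HFD on plate 4. On plate 1 HFD was below NC for Actb and above it for Cfl1, and on plate 4 both HFD sums stood above the 7 NC cells. The log2 fold changes were 0.29 ± 0.20 for Actb, 0.20 ± 0.21 for Tmsb4x and 0.60 ± 0.31 for Cfl1, each with an edgeR adjusted p of 0.999. Without plate 4 they were -0.061, -0.13 and 0.11, and those of Pfn1 and Rhob were below 0 as well (-0.42 and -0.077). With only 2 NC replicates the exact permutation test could not give a p under 0.167. Without the plate block Actb passed at 4 weeks (log2 fold change 0.95, edgeR adjusted p 0.00354). The 4-week cells lay on plates 1, 4 and 5, while NC sums of all plates ran from 2098 to 6524 CPM.

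A single cell carried part of the 4-week values. One well of plate 4 held 19711 UMIs, 339 of them Actb (1.72% of the cell, against a median of 0.455% over all cells) and 232 Tmsb4x (1.18%, against 0.427%). It supplied 24% of the transcripts of a sum of 15 cells. Without it that sum had 6964 in place of 9557 CPM of Actb, 2697 in place of 4929 CPM of Tmsb4x and 586.9 in place of 952.1 CPM of Cfl1, so that Tmsb4x came to lie below the NC sum of 2849 CPM. The edgeR log2 fold changes without this cell were 0.16 ± 0.19 for Actb, -0.051 ± 0.19 for Tmsb4x and 0.41 ± 0.29 for Cfl1, a choice made after seeing the data. Those of Pfn1 (-0.084) and Coro1a (-0.10) were below 0 as well, which leaves 7 of 10 above 0.

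Markers of cell types differed between the diets on plate 4 too. The microglial list stood at 24599 and 28252 CPM in the 4-week sums against 32549 CPM in NC, and the border-associated macrophage list at 120.5 and 132.4 against 33.5 CPM. The neutrophil list, of which 1 of 4 genes was in the tables, stood at 0 and 824.0 CPM against 0 in NC. On plate 1 the microglial list was 34665 CPM with HFD and 34451 CPM in NC, and that of macrophages 25.7 and 33.9 CPM. In the edgeR fit at 4 weeks 0 of 10 microglial genes passed, with 1 of 10 above 0 and a median log2 fold change of -0.12. Without the cells holding markers of another cell type, 7 of 10 members were above 0 at 4 weeks, with Actb at 0.081 ± 0.18, Tmsb4x at -0.073 ± 0.18 and Cfl1 at 0.45 ± 0.30 (edgeR adjusted p 0.999 each).

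At 9 weeks Actb was lower and Tmsb4x higher than the NC mean of the plate in each of 6 sums, which came from 2 replicates. Actb was 3133 ± 191.8 CPM in NC (SD, n = 4) and 2685 and 2790 CPM with HFD on plate 10, 3535 ± 503.2 and 2820 and 2850 CPM on plate 11, and 2573 ± 419.6 and 2071 and 2494 CPM on plate 12. The diets were apart on plates 10 and 11 and overlapped on plate 12. Tmsb4x was 3288 ± 614.8 CPM in NC and 3547 and 3812 CPM with HFD on plate 10, 3555 ± 299.4 and 3663 and 4169 CPM on plate 11, and 4044 ± 197.4 and 4561 and 4730 CPM on plate 12, where alone the diets did not overlap. The log2 fold changes were -0.20 ± 0.11 (adjusted p 0.662) and 0.20 ± 0.10 (adjusted p 0.658) by edgeR. The exact two-sided permutation p was 0.0667 for Actb, the smallest that 15 assignments allow, and 0.133 for Tmsb4x. Both fold changes were smaller than the differences of plate 12 from plates 10 and 11 given above (-0.46 and 0.26). Arpc2 had an exact p of 0.0667 as well, with a log2 fold change of -0.24 ± 0.16 (edgeR adjusted p 0.750). It was 617.3 ± 127.6 CPM in NC and 426.0 and 470.4 CPM with HFD on plate 10, 679.4 ± 140.9 and 536.4 and 584.9 CPM on plate 11, and 605.9 ± 142.5 and 561.8 and 671.7 CPM on plate 12. The diets overlapped on each of these plates, and 5 of 6 HFD sums lay below the NC mean.

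At 16 weeks 9 of 10 members had fold changes below 0, all small. The log2 values ran from -0.20 ± 0.14 for Coro1a (edgeR adjusted p 0.847) to 0.15 ± 0.11 for Rhob (0.852). Elmo1 stood below the NC mean of its plate in 9 of 10 sums. It was 295.0 and 351.4 CPM with HFD against 584.7 ± 151.3 CPM (SD, n = 4) on plate 13, where the diets were apart, 483.9 against 558.0 CPM on plate 2 and 569.9 against 575.0 CPM on plate 3. On plates 10, 11 and 12 the diets overlapped, with HFD sums of 353.9 to 786.7 CPM. The edgeR log2 fold change was -0.18 ± 0.13 (adjusted p 0.852), and the exact two-sided permutation p, in which each replicate keeps 1 diet on its plates, was 0.0111, with 0.0022 as the smallest possible.

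Detection followed depth and level. Actb and Tmsb4x had a UMI in 99.8% and 99.8% of the cells and, after thinning to 1000 UMIs, in 96.8% and 97.1%. The other members were detected in 47.9% (Pfn1) to 83.1% (Rhob) of the cells and, thinned, in 20.6% to 52.3%. The median cell held 2830 UMIs over the genes counted. Markers that microglia should lack were found in far fewer thinned cells, 3.79% for Mag, 3.18% for Mbp and 0.81% for Snap25. Beside Elmo1 at 3 days and Pfn1 at 1 week, thinned detection and level both lay above the NC of the plate in 3 of 3 HFD sums at 4 weeks for Cfl1, Arpc1b, Arpc2 and Aif1. For Cfl1 the difference in detection there was 13.3 points on average, 1.95 and 24.7 on the plates compared. These shares carry no test.

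The wider actin lists gave no call at any length. The 7 lists held 9 to 20 genes each, 86 of them genes beside the members. By edgeR with adjustment over all genes, 0 of 10 tested genes of monomer and filament turnover, 0 of 7 of the Arp2/3 complex, 0 of 10 coronins, crosslinkers and membrane linkers, 0 of 11 small GTPases and inhibitors, 0 of 13 nucleation promoters and formins, 0 of 5 ELMO and DOCK genes and 0 of 2 myosin genes passed at 3 days. At an unadjusted p under 0.05 by edgeR these lists had 0, 0, 1, 1, 1, 1 and 0 genes, beside 116 of all 1719 genes tested. The ELMO and DOCK gene was Elmo1 itself. The median log2 fold changes of the lists at 3 days were 0.13, 0.23, 0.14, 0.25, 0.17, -0.24 and -0.21, beside -0.0029 over all genes. At 16 weeks they were -0.059, -0.090, -0.0057, 0.099, -0.0097, -0.015 and 0.15 in the order turnover, Arp2/3, coronins, small GTPases, promoters and formins, ELMO and DOCK, and myosins. Medians differed at the lengths not listed here. That of Arp2/3 was highest at 4 weeks (0.33) and lowest at 16 weeks. That of ELMO and DOCK was highest at 9 weeks (0.18) and lowest at 3 days.

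Among 15 immediate early genes, with which Rhob is often grouped and of which 4 or 5 were tested at each length, Jun was the only one called, at 9 weeks (log2 fold change -1.40 ± 0.30, edgeR adjusted p 0.0176). Its 6 HFD sums came from 2 replicates, and 0 genes were called at 9 weeks by limma voom with the identifier as a random block (estimated correlation 0.0413), by DESeq2, in 1 fit of all lengths, without the plate block, or with a higher minimum of transcripts per cell. Leaving out plate 10, the NC replicate D_M2 or the HFD replicate D_M8 also left 0 calls. Jun was 320.7 ± 131.4 CPM in NC and 63.9 and 98 CPM with HFD on plate 10, 306.0 ± 99.6 and 91.9 and 150.0 CPM on plate 11, and 258.3 ± 203.5 and 112.3 and 139.9 CPM on plate 12 (SD, n = 4 NC replicates). Rhob at 9 weeks had a log2 fold change of 0.016 ± 0.14 (adjusted p 0.986), below NC on plate 11 (674.3 and 719.9 against 856.9 to 1333 CPM) and above it on plate 12 (1091 and 1281 against 668.5 to 1058 CPM). Between cells Rhob had an r of 0.010 with Jun and -0.007 with Junb.

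Between cells, Actb and Tmsb4x had a higher ratio of variance to mean than most genes. With every cell thinned to 1000 UMIs and centred on its replicate and plate, the variance over the mean was 1.82 for Actb and 1.46 for Tmsb4x, above 97.6% and 95.4% of 632 genes, whose median was 1.12. Elmo1 was at 1.04, above 10.3% of the genes, and the other members lay between 1.10 and 1.21. A value of 1 is what counting alone gives, and the ratio rises with the mean, which was 4.99 and 4.59 thinned UMIs for this pair and 0.22 to 0.78 for the others. Variance beyond counting, divided by the squared mean, was 0.16 for Actb and 0.10 for Tmsb4x, beside 0.08 (Elmo1) to 0.45 (Pfn1) for the others, of which 7 lay above Actb, a measure chosen after seeing the data. As a share of the transcripts of a cell, Actb ran from 0.15% at the 5th to 1.01% at the 95th percentile, and Tmsb4x from 0.163% to 0.84%.

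The pair also varied together. Pearson's r between cells was 0.201 for Actb and Tmsb4x, 0.134 for Tmsb4x and Cfl1, 0.118 for Actb and Cfl1 and 0.099 for Actb and Arpc1b (1617 cells, log2 of thinned UMIs plus 1). The median over the 45 pairs of members was 0.026, with 33 pairs positive, beside a median of 0.002 and a 95th percentile of 0.049 over all 199396 pairs of the 632 genes. For a single member with all genes, the 95th percentile was 0.068 for Actb and 0.091 for Tmsb4x. For the other members it was 0.044 to 0.057. Pairs with Actb or Tmsb4x are thus less exceptional than 0.049 makes them look, and the part of level in r was not tested. The lowest pair was Coro1a and Aif1 at -0.040. Control cells alone gave 0.246 for Actb and Tmsb4x, and unthinned counts 0.364. These are descriptions over cells that share library, depth and dissociation. Pfn1, with a UMI in 18.9% of the cells in the draw used here, was under the 20% that the 632 genes had to reach and was kept as a member in the pairs and variances.

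**Figure D5:**
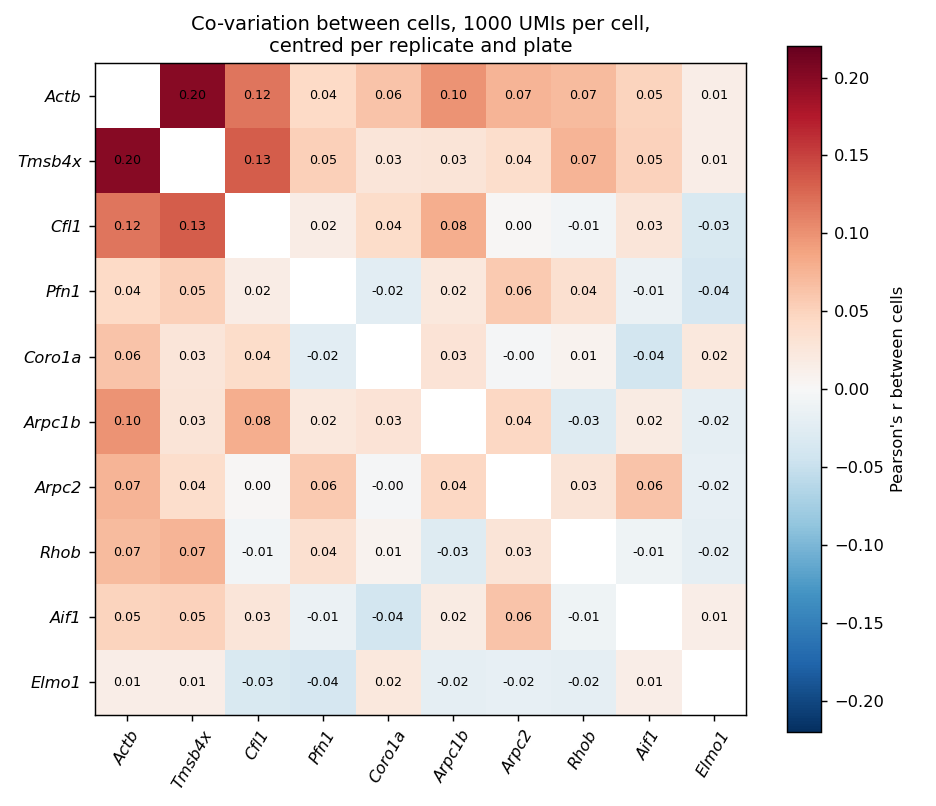
Pearson's r between cells for each pair of the 10 genes (rows and columns), from log2 of thinned UMIs plus 1 centred per replicate and plate, on a colour scale from -0.22 to 0.22 with the value in each square. Actb, Tmsb4x and Cfl1 form the 3 highest squares (0.20, 0.13 and 0.12), and most other squares lie near 0.

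The genes nearest to each member by r were also read out, over 632 genes. Tmsb4x was closest to Cst3, the secreted protease inhibitor cystatin C (0.216), and then to Actb, and Actb was closest to Tmsb4x, Cst3 (0.153) and Laptm5, a lysosomal membrane protein of blood-lineage cells (0.139). Cfl1 had Tmsb4x, Actb and Tyrobp, the signalling adaptor of Trem2 (0.115), and Arpc1b had Actb, Alox5ap (0.083) and Cfl1 (0.080). Aif1 had Cst3 (0.114), Laptm5 (0.093) and Sh3bgrl3 (0.073). The nearest genes of Elmo1 were Msn, a linker of actin to the membrane, Atp2b1 and Sap25 (0.085 each), those of Rhob were Phf14 (0.091), Efhd2 (0.084) and Tgfbr1 (0.081), and those of Pfn1 were Tpt1 (0.077), Rhog (0.073) and Fth1 (0.071). Coro1a had Laptm5 and Cyth4 (0.076 each) among its first 3, and Arpc2 had C3ar1 (0.093) and Clta (0.079). Neither of them, nor Aif1, Elmo1, Rhob or Pfn1, had a member among its first 3.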

How the data were processed

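Sorted microglia were sequenced by CEL-Seq2 on 13 plates. The authors trimmed and mapped the reads to mm10 (snakePipes, STAR, featureCounts) and deposited, for each plate, transcripts as an estimated count per gene and well, in which the number of unique molecular identifiers (UMIs) is corrected for collisions among 4096 tags. A table of wells gave diet, its length and replicate identifiers. The authors' filtered table served to choose genes and to check values (140 cells compared, largest difference 0), and its 703 other columns of values were not used. It covers 17280 genes, and 22.34% of the transcripts lay outside it.

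The UMI correction was inverted, and 100.0% of the values above 0 came out whole within 0.001. Wells with at least 1500 transcripts were kept (1617 of 2496), without a doublet caller. Corrected transcripts were summed per replicate, plate and length over at least 5 cells. Replicates given as 7_days and 1_week were taken as 1 length. Sums were fitted with edgeR 4.0.16 (quasi-likelihood, TMM factors 0.892 to 1.112, filterByExpr, plate as a block, Benjamini-Hochberg adjustment at 0.05) in R 4.3.3, with DESeq2 1.42.0 and limma 3.58.1 voom as alternatives. This is a count test on rounded sums of transcripts corrected for collisions. The recovered UMIs served for markers, detection, thinning and co-variation. Single values were compared by exact two-sided permutation of the diet among identifiers within sets of plates that share identifiers (scipy 1.17.1, numpy 2.4.6, log2 of CPM plus 1). Cells were thinned to 1000 UMIs for detection and co-variation, the latter over genes found in at least 20% of the thinned cells and over all members. The fits were tested on simulated data with known changes.

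Named were the 10 genes, called genes of the lists, the 3 genes nearest to each member by r, Actg1 and the Arp2/3 subunits beside Actb and Arpc1b, and immediate early genes beside Rhob. Some genes nearest by r are not reported here. The members and lists were chosen with earlier results of these data known. Alternatives varied the plate block, scaling, filters on cells, genes and sums, the pseudocount, and left out replicates and plates. Gene places are from GENCODE M21 (GRCm38).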

Additional observations from a re-analysis of the deposited data

Results flagged for a closer look

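Over 70 combinations of a gene and a group of 4 to 10 replicates, 3 held a replicate far from the others by the gap to its nearest neighbour relative to the group's range, where chance gives about 1 in 20. Rhob in NC of plates 10 to 12 stood at 10.03 on the log2 CPM scale in replicate M4, beside 9.65 to 9.69 in the other replicates. Rhob at 16 weeks of HFD differed from the NC of its plate by -0.62 on the log2 scale in replicate M10, beside 0.02 to 0.24 in the others. Elmo1 at 3 days of HFD differed from the NC of its plate by -1.07 on the log2 scale in replicate M17, beside -0.59 to -0.52 in the others.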

How the results depend on the processing

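Over 177 alternative fits, 170 kept the plate as a block, and 0 of these called a member. Without the plate block 1 member passed at 3 days (Rhob, log2 fold change -0.96, edgeR adjusted p 0.00532), 1 at 4 weeks (Actb) and 2 over all lengths (Actb, adjusted p 5.34e-07, and Rhob, 0.000701), and the cause was not tested. The number of members with an exact permutation p under 0.05 was reported as 0, 2, 0 and 1 at 1 day, 3 days, 1 week and 16 weeks. With 1 replicate left out it ranged from 0 to 2, 0 to 2, 0 to 1 and 1 to 2. The permutation was computed for the members only and not corrected for their number. These counts therefore have no share of all genes beside them. Elmo1 at 3 days kept a negative value in 26 of 26 alternatives (-0.99 to -0.19), with 0.258 as the smallest adjusted p, and Pfn1 at 1 week a positive one in 33 of 33 (0.01 to 0.76), with 0.576 as the smallest. Unthinned, 6 members at 9 weeks and 2 at 16 weeks had a higher share of positive cells than NC, against 2 and 1 after thinning to 1000 UMIs, and at the other lengths 6 or 7 against 6 to 8. At 1400 UMIs the variance over the mean was 2.16 for Actb and 1.68 for Tmsb4x, and unthinned the r of this pair was 0.364.

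Over all genes, the calls at 1 day, 3 days, 1 week, 4 weeks, 9 weeks and 16 weeks were 0, 0, 2, 0, 1 and 0. They were 2, 14, 6, 8, 0 and 0 without the plate block, 0, 6, 7, 9, 3 and 4 without a filter on low counts, 0, 4, 5, 6, 1 and 0 with sums over linked plates, and 0, 4, 4, 5, 1 and 0 with 1 sum per diet and plate. Over all lengths together they were 59 without the plate block, 30 without the filter and 4 with limma voom, against 0. The other alternatives gave 0 to 4 calls, and leaving out 1 replicate or plate 0 to 5. The NC of plate 4 was 1 sum of 7 cells, and 9 weeks had 2 replicates.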
